A study of Mus musculus with 15 samples.

Results

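The genes described here are the 10 genes of the mouse major histocompatibility complex (MHC) class I pathway H2-K1, H2-D1, B2m, Tap1, Tap2, Tapbp, Psmb8, Psmb9, Psmb10 and Nlrc5, measured in cardiac and hepatic allografts. They are a set given by gene name, to which probes were matched by the transcript accession they carry. No filter on values was applied, but the set was chosen with earlier results of these data known. They made up 10 of the 18217 genes that could be named on the array, and 16 of its 41174 probes. All 16 probes had a value on every array and were well above background on every array by the mark of the scanner software. The study hybridized 15 single-colour Agilent arrays, 3 in each of 5 groups, to find genes that change when a graft from another MHC strain is rejected. The cardiac allografts were hearts of B10 donors (C57BL/10, haplotype H-2b) placed in the abdomen of sex-matched CBA recipients (H-2k) and taken at postoperative day (POD) 5. The hepatic allografts were orthotopic livers of B10.BR donors (H-2k) in B10.D2 recipients (H-2d), taken at POD5 or at POD8. All strains were bought as male mice, and no age is given. The 3 heart and 3 liver controls are described as normal tissue in the labels and methods and as isografts in the results and legends, so they are called controls here, and their strain is not given. A graft holds donor cells and the recipient leukocytes that enter it, and each array measured their RNA together. The labels do not say that the samples of a group came from separate animals, so P-values measure the spread between these samples, which may be technical.

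MHC class I molecules carry peptides of the cell's own proteins to its surface, where CD8 T cells read them. The proteasome cuts proteins into peptides, and under interferon-gamma its catalytic subunits are replaced by Psmb8, Psmb9 and Psmb10 to give the immunoproteasome. The transporter formed by Tap1 and Tap2 moves the peptides into the endoplasmic reticulum, and tapasin, the product of Tapbp, bridges the transporter to the class I heavy chain while a peptide is loaded. H2-K1 and H2-D1 encode the classical heavy chains, which differ between strains and are the foreign antigens of an MHC-mismatched graft. B2m encodes the invariant light chain, beta-2 microglobulin. Nlrc5 is the transactivator that drives transcription of class I, B2m, Tap1 and Psmb9 through elements of their promoters.

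The promoters of 8 of the 10 genes were held in a RefSeq table of assembly GRCm38.p6, as windows from 250 bases before to 50 bases after each start. Tap2 and Nlrc5 had no entry. The parts upstream of the start are shown for 5 of the genes, because the 2 heavy chains share theirs and Tap1 and Psmb9 use 1 stretch from its opposite ends. Capitals mark the letters found by a search of both strands. They are, in H2-K1 and H2-D1 and read from the left, overlapping matches to the NF-kappaB motif, a shorter form of the interferon-stimulated response element on the opposite strand (GAANNGAAA), the core of the cyclic AMP response element (TGACG) and a CCAAT box on the opposite strand. In B2m they are the interferon-stimulated response element (GAAA and GAAA with any 2 bases between them), the NF-kappaB motif on the opposite strand, TGACG and a CCAAT box on the opposite strand. In the Tap1 and Psmb9 stretch they are CCAAT and TGACG. All stretches are written 5′ to 3′ on the strand of the gene, which for the shared stretch is that of Tap1. H2-K1 lies at chr17:34000355-34000486 on the minus strand, H2-D1 at chr17:35262895-35263026 on the plus strand, B2m at chr2:122147487-122147686 on the plus strand, and the stretch between the Tap1 and Psmb9 starts at chr17:34187331-34187555.
H2-K1: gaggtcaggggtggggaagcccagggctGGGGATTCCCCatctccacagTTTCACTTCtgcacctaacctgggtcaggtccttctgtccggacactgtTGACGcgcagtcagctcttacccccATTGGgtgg
H2-D1: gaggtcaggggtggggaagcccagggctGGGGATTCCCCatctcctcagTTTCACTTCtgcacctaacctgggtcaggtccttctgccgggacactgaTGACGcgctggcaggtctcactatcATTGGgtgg
B2m: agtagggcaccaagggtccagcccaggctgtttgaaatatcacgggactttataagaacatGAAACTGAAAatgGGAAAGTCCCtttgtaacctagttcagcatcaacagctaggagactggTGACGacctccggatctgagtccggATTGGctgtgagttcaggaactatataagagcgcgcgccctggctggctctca
Tap1 and Psmb9: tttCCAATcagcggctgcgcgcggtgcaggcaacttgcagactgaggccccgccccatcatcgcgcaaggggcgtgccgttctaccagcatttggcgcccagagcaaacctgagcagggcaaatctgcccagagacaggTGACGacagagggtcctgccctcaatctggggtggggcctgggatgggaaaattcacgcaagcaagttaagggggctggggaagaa

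The H2-K1 and H2-D1 stretches were identical at 121 of 132 aligned bases (91.7%), and their NF-kappaB and interferon letters were identical. Both ends of the stretches were set at letters found in both windows, and these letters count among the identical bases. The Tap1 and Psmb9 windows overlapped by 275 of 300 bases, with 225 bases between the 2 starts. Of the remaining windows, that of Tapbp held CCAAT only and that of Psmb8 held a gamma-activated site (TTCNNNGAA) only, while the Psmb10 window held none of the motifs searched. Among all 32851 windows of the table, 3.44% held the interferon-stimulated response element, 7.52% its shorter form GAANNGAAA, 8.30% TTCNNNGAA, 8.46% the NF-kappaB motif, 20.8% TGACG and 37.4% CCAAT. The shorter element was added to the search after the H2-K1 window had been viewed. These matches describe letters of the C57BL/6 reference and are not binding measurements.

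The authors deposited a processed intensity for each spot, from which log2 signals were taken, and the 15 arrays were quantile normalized together so that a gene has a level in all 5 groups on 1 scale. A gene is read from its brightest probe, and a log2 difference of 1 is a doubling. The 75th percentile of the processed intensity was 1021 to 1247 on the heart control arrays, 394 to 710 on the heart allografts, 92.1 to 226 on the liver controls, 338 to 478 on the POD5 liver allografts and 384 to 454 on those of POD8. An array had between 52.5% and 70.5% of its probes well above background, with the lowest share in the liver controls, and arrays of a group correlated at r = 0.956 to 0.994. The tissue labels fitted their markers: 7 cardiomyocyte genes averaged 14.8 to 16.3 log2 units on the heart arrays and 3.46 to 4.43 on the liver arrays, and 5 hepatocyte genes averaged 15.2 to 15.7 on the liver arrays and 1.95 to 2.84 on the heart arrays. Scaling each array to its 75th percentile instead moved the median of all probes to 0.47 in the heart comparison, -0.37 in the liver comparison at POD5 and -0.46 at POD8, against 0.02, -0.07 and -0.08 here. Relative to all probes, the 10 genes had a median difference of 3.07 in the hearts, 1.59 in the POD5 livers and 1.38 in the POD8 livers, and with the percentile scaling it was 2.51, 1.43 and 1.31.

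All 10 genes rose in the cardiac allografts, by between 2.07-fold for B2m and 27-fold for Tap1. In the liver, 9 of the 10 rose at POD5 and 9 of the 10 at POD8, with Nlrc5 the exception at both times, and the largest rises were those of Psmb9, at 6.93-fold and 6.85-fold. The liver calls depended in part on the scaling and on the arrays fitted. With each array scaled to its 75th percentile 8 were called at POD5 and 5 at POD8, and with only the arrays compared in the fit 5 were called at POD5 and 7 at POD8. By limma, with Benjamini-Hochberg adjustment over all 41003 probes tested, 13.3% of probes rose in the hearts, 8.12% in the POD5 livers and 7.05% in the POD8 livers. By probe rather than gene, 16 of 16 rose in the heart and 15 of 16 at each time in the liver. The 10 genes had a median log2 difference of 3.09 in the hearts, 1.52 in the POD5 livers and 1.3 in the POD8 livers. In the heart, all 3 allografts lay above all 3 controls for 10 of 10 genes, as they did for 29.1% of all probes. In the liver this held for 9 of 10 genes at POD5 and 10 of 10 at POD8, against 12.5% and 12.9% of all probes. The 2 liver comparisons share their controls. The precision is limited by the number of arrays, since an exact permutation test of 3 arrays against 3 cannot give a P-value under 0.1 (2-sided), and an exact test of a single gene therefore cannot pass.

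**Figure D1:**
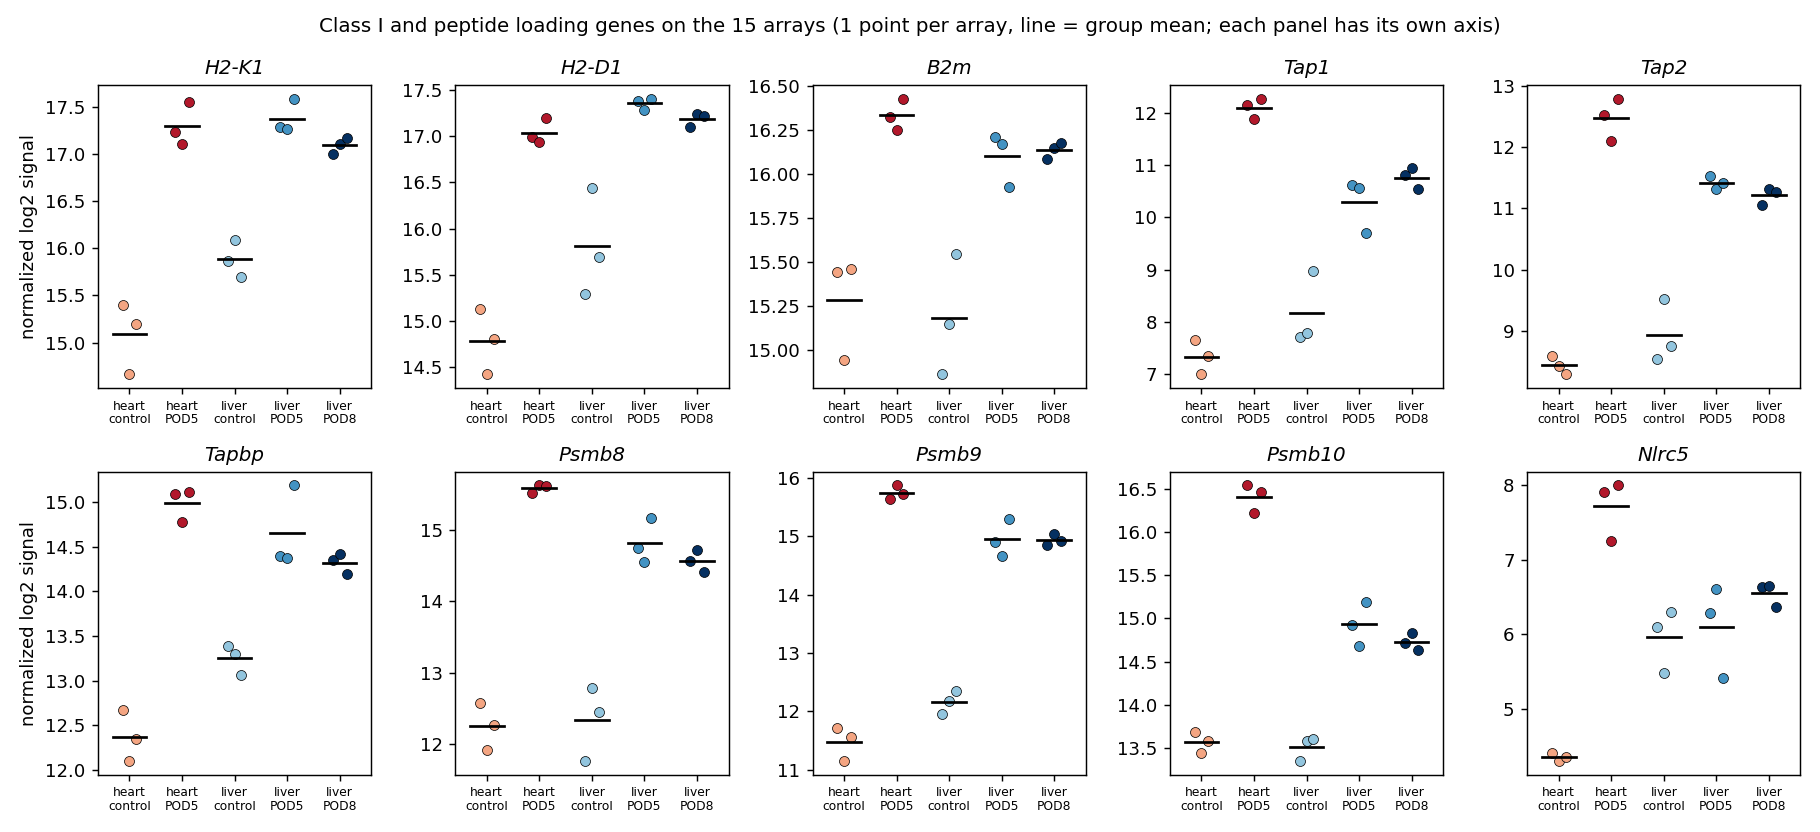
Normalized log2 signal of the 10 genes (y axis, 1 panel per gene with its own scale, brightest probe) on each of the 15 arrays, by group (x axis), with a line at the mean of the 3 arrays of a group. The heart allografts lie above the heart controls in all 10 panels, and the liver allografts above the liver controls in all panels but that of Nlrc5, where only the POD8 arrays do.

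The heavy chains, which present the peptide, rose in both organs. H2-K1 gave log2 signals of 15.40, 14.67 and 15.20 in the heart controls and 17.24, 17.10 and 17.55 in the heart allografts. In the liver it gave 15.86, 16.09 and 15.69 in the controls, 17.28, 17.26 and 17.59 in the allografts at POD5 and 17.00, 17.10 and 17.17 at POD8. The allografts were thus above the controls of their own organ on every array, and the POD8 livers were all below the POD5 livers. The log2 difference was 2.21 in the heart (4.62-fold, 95% confidence interval 1.78 to 2.64, adjusted P = 1.06e-05), 1.49 in the POD5 livers (2.82-fold, adjusted P = 0.000449) and 1.21 at POD8 (2.31-fold, adjusted P = 0.00206). With the percentile scaling the POD8 difference was 0.66 and no longer called (adjusted P = 0.0688). The liver allografts at POD5 had the highest mean of the 5 groups, although their range overlapped that of the heart allografts.

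H2-D1, the other classical heavy chain, followed the same order in the controls. Its log2 signals were 15.13, 14.42 and 14.81 in the heart controls and 16.99, 16.93 and 17.19 in the heart allografts. The liver controls gave 15.29, 16.44 and 15.69, the liver allografts 17.38, 17.28 and 17.40 at POD5 and 17.10, 17.24 and 17.21 at POD8. Liver control 2 was the highest control for H2-D1, and it was also the highest for H2-K1. The rise was 2.25 log2 units in the heart (4.76-fold, 95% confidence interval 1.70 to 2.80, adjusted P = 5.34e-05), 1.55 in the POD5 livers (2.92-fold, adjusted P = 0.00168) and 1.38 at POD8 (2.60-fold, adjusted P = 0.00415). The POD8 call was lost with the percentile scaling (0.82, adjusted P = 0.0631), and with only the arrays compared in the fit both liver calls were lost (1.84 at POD5, adjusted P = 0.0536, and 1.57 at POD8, adjusted P = 0.0631). The second H2-D1 probe gave 2.52, 1.64 and 1.43.

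The 3 H2-K1 probes all rose in every organ and at each time but differed in size, with log2 differences of 2.14 to 3.07 in the heart, 1.33 to 3.00 in the POD5 livers and 1.21 to 2.93 at POD8. The spread was widest on a dimmer probe whose liver controls were at 11.31, 14.46 and 12.12 and whose liver allografts at POD5 were at 15.80, 15.78 and 15.30. Class I heavy chains are near-identical to each other in sequence and vary between H-2b, H-2k and H-2d, while the probes were designed on reference transcripts. How far a probe reads another class I gene, or reads the alleles of donor and recipient unequally, was not tested, so the levels of single heavy chains are uncertain.

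B2m rose less than any other of the 10 genes in the heart. The log2 signals of the light chain were 15.44, 14.95 and 15.46 in the heart controls and 16.33, 16.25 and 16.43 in the heart allografts. In the liver they were 14.86, 15.15 and 15.54 in the controls, 16.21, 16.17 and 15.93 at POD5 and 16.09, 16.15 and 16.18 at POD8. The allografts did not overlap the controls of their organ, and the heart allografts were above all liver arrays. The log2 difference was 1.05 in the heart (95% confidence interval 0.65 to 1.46, adjusted P = 0.00128), 0.92 in the POD5 livers (1.89-fold, adjusted P = 0.00625) and 0.95 at POD8 (1.94-fold, adjusted P = 0.00615). The second B2m probe gave 1.38, 0.98 and 0.74. With the percentile scaling B2m was no longer called in the liver, at 0.40 log2 units at POD5 and 0.50 at POD8, and with only the arrays compared in the fit neither liver difference was called (adjusted P = 0.0797 and 0.0565).

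Tap1 and Tap2, which together form the peptide transporter, rose most among the genes of loading. Tap1 gave 7.66, 7.0 and 7.35 log2 units in the heart controls and 12.14, 11.88 and 12.26 in the heart allografts. Its liver values were 7.72, 7.80 and 8.97 in the controls, 10.62, 10.55 and 9.69 at POD5 and 10.80, 10.93 and 10.53 at POD8. Within the liver, control 3 was the highest control and POD5 allograft 3 the lowest allograft, and the groups were still apart. Tap1 was 4.76 log2 units higher in the heart allografts than in their controls (95% confidence interval 4.02 to 5.49, adjusted P = 1.82e-06), 2.13 higher in the POD5 livers (4.37-fold, adjusted P = 0.00146) and 2.59 higher at POD8 (6.03-fold, adjusted P = 0.000452). With only the arrays compared in the fit the POD5 liver difference was 2.17 and not called (adjusted P = 0.0697).

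Tap2 showed the same separation. The heart controls were at 8.59, 8.44 and 8.30 log2 units and the heart allografts at 12.52, 12.10 and 12.79. The liver controls were at 8.54, 9.52 and 8.75, the liver allografts at 11.53, 11.31 and 11.41 at POD5 and at 11.05, 11.32 and 11.26 at POD8. Its rise was 4.03 log2 units in the heart (16.3-fold, 95% confidence interval 3.51 to 4.55, adjusted P = 4.8e-07), 2.48 in the POD5 livers (5.58-fold, adjusted P = 4.54e-05) and 2.27 at POD8 (4.83-fold, adjusted P = 9.76e-05).

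Tapbp rose less than the transporter it serves. Its log2 signals were 12.67, 12.10 and 12.34 in the heart controls and 15.09, 14.78 and 15.11 in the heart allografts. The liver controls gave 13.39, 13.30 and 13.06, and the liver allografts 14.40, 14.37 and 15.19 at POD5 and 14.36, 14.42 and 14.20 at POD8. Liver allograft 3 at POD5 was the highest of the liver arrays and lay above the 3 heart allografts. The differences were 2.62 in the heart (6.14-fold, adjusted P = 7.37e-06), 1.40 in the POD5 livers (2.64-fold, adjusted P = 0.00146) and 1.07 at POD8 (2.10-fold, adjusted P = 0.00903). The POD8 call was lost with the percentile scaling (0.74, adjusted P = 0.0515) and the POD5 call with only the arrays compared (1.44, adjusted P = 0.0581). Of the other loading genes, Tapbpl, the tapasin-related peptide editor, rose 11.8-fold in the heart and 2.13-fold in the liver at POD8, and its log2 difference of 0.53 at POD5 was not called. Erap1, which trims peptides in the endoplasmic reticulum, rose by 0.93 log2 units in the heart and 0.83 in the POD5 livers, and its 0.59 at POD8 was not called. The folding chaperone Canx fell in the heart by its brightest probe (-0.84, adjusted P = 0.022) but gave 0.30, not called, by its dimmest, and Calr was not called in any of the 3 comparisons. Pdia3 had no probe matched here.

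**Figure D2:**
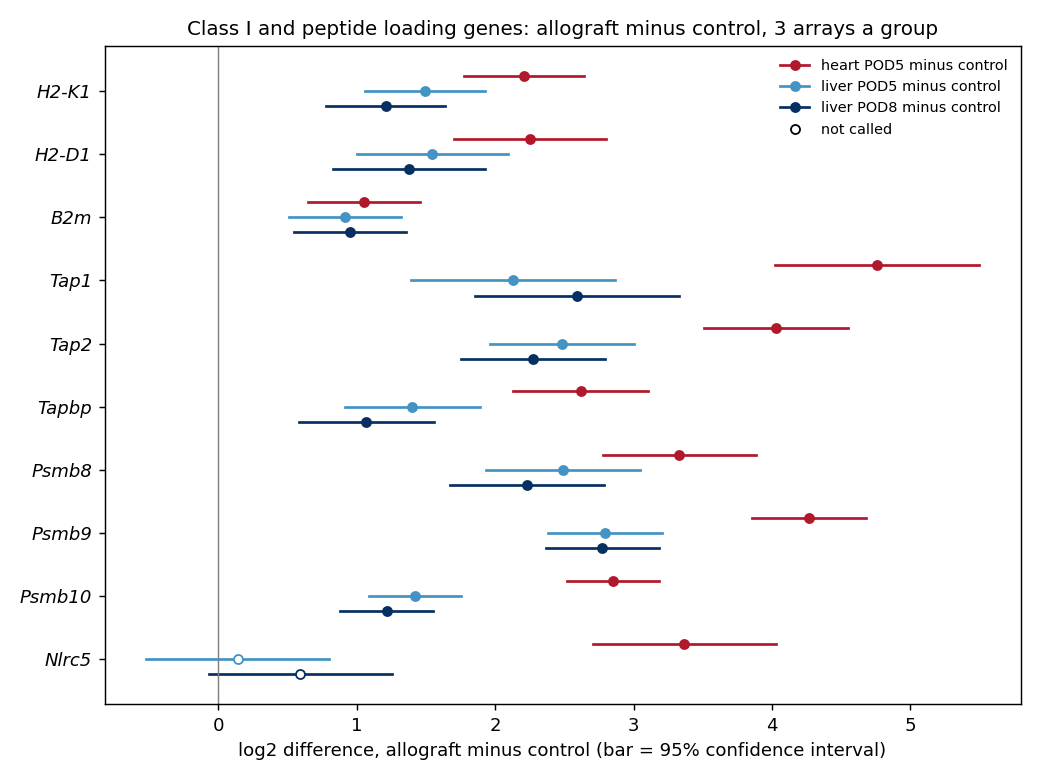
Log2 difference between allografts and controls (x axis) for the 10 genes (y axis) in the heart at POD5 and the liver at both times, with 3 arrays a group, 95% confidence intervals as bars and open points for differences that were not called. The heart difference is the largest of the 3 for each gene, from 1.05 for B2m to 4.76 for Tap1, and the Nlrc5 points of the liver are open.

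The inducible catalytic subunits of the proteasome rose in all 3 comparisons, in order of size Psmb9, Psmb8 and Psmb10. Psmb9 was at 11.72, 11.15 and 11.57 log2 units in the heart controls and at 15.64, 15.87 and 15.73 in the heart allografts. It was at 11.96, 12.19 and 12.35 in the liver controls, at 14.91, 14.67 and 15.29 in the liver allografts at POD5 and at 14.86, 15.05 and 14.92 at POD8. The gap between the highest control and the lowest allograft was over 2 log2 units in each organ. Psmb9 rose 19.3-fold in the heart (4.27 log2 units, 95% confidence interval 3.86 to 4.68, adjusted P = 5.42e-08), 6.93-fold in the POD5 livers (2.79, adjusted P = 3.42e-06) and 6.85-fold at POD8 (2.78, adjusted P = 3.6e-06).

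Psmb8 gave 12.58, 11.92 and 12.26 in the heart controls and 15.51, 15.62 and 15.62 in the heart allografts. The liver controls were at 11.76, 12.79 and 12.44, with the allografts at 14.74, 14.56 and 15.16 at POD5 and 14.56, 14.72 and 14.40 at POD8. Its rise was 10.1-fold in the heart (adjusted P = 3.11e-06), 5.62-fold in the POD5 livers (adjusted P = 7.11e-05) and 4.69-fold at POD8 (adjusted P = 0.000179), and the second probe gave log2 differences of 3.46, 2.53 and 2.34. Psmb10, the third inducible subunit, was at 13.68, 13.43 and 13.57 in the heart controls and 16.54, 16.23 and 16.47 in the heart allografts. In the liver it was at 13.35, 13.58 and 13.60 in the controls, 14.92, 14.68 and 15.19 at POD5 and 14.72, 14.83 and 14.63 at POD8. The controls of the 2 organs overlapped for Psmb8 and Psmb10, and the heart allografts were above all liver allografts for both. Psmb10 rose 7.21-fold in the heart (adjusted P = 2.29e-07), 2.68-fold in the POD5 livers (adjusted P = 0.000105) and 2.33-fold at POD8 (adjusted P = 0.000361).

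The constitutive subunits that these 3 replace did not pass the test. Psmb5, Psmb6 and Psmb7 had log2 differences between -0.37 and 0.41 over the 3 comparisons, and 0 of 3 were called in any of them. Psmb6 was nearest to the threshold, at 0.41 in the heart with an adjusted P = 0.078. The PA28 activator, a cap that opens the proteasome core, rose with the inducible subunits: Psme1 by 1.70 log2 units in the heart, 1.21 in the POD5 livers and 0.81 at POD8, and Psme2 by 1.79, 1.21 and 0.89. Psme3, which forms the separate nuclear cap, rose by 1.77 in the heart, whereas its differences of 0.16 at POD5 and -0.12 at POD8 in the liver were not called. Of a list of 12 genes for the other core subunits and the assembly factor, 6 rose in the heart, 3 in the POD5 livers and 1 at POD8, and none fell. Over all probes the shares that rose were 13.3%, 8.12% and 7.05%, and the count at POD8 is near that background. The largest rises of that list in the heart were those of Pomp, the assembly chaperone of the proteasome, at 1.15 log2 units, Psma5 at 0.92 and Psma4 at 0.85. The medians of this list were 0.48 in the hearts, 0.48 in the POD5 livers and 0.40 in the POD8 livers.

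**Figure D3:**
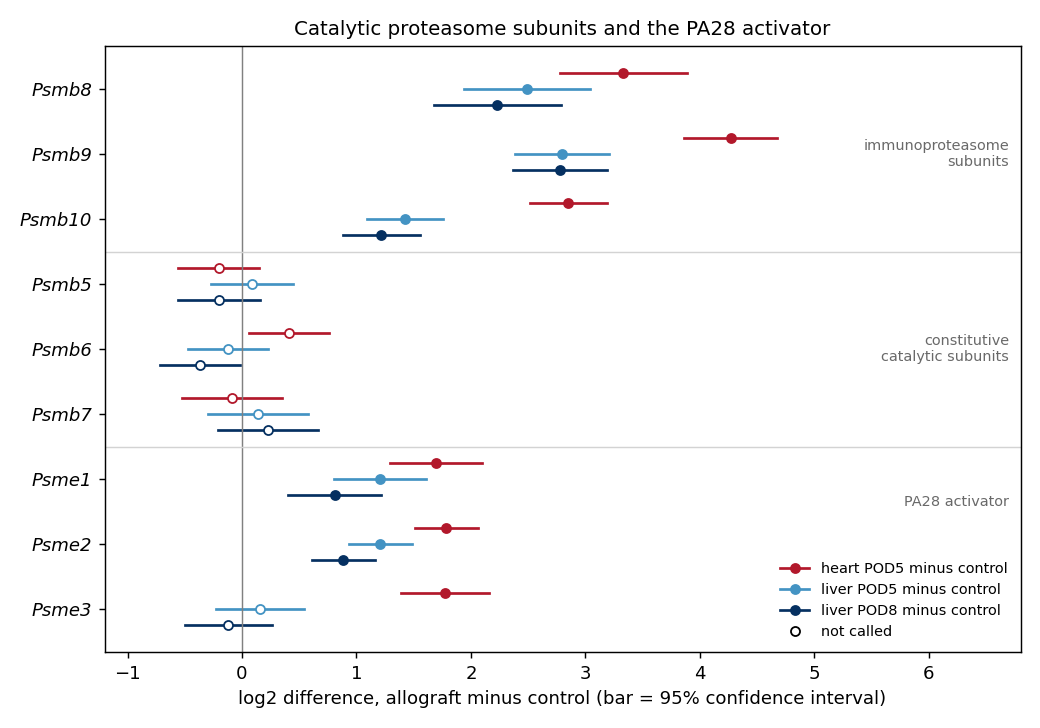
Log2 difference between allografts and controls (x axis, bars for 95% confidence intervals, open points not called) for the inducible catalytic subunits Psmb8, Psmb9 and Psmb10, the constitutive subunits Psmb5, Psmb6 and Psmb7 and the PA28 activator genes (y axis), in the heart and in the liver at both times. The inducible subunits lie between 1.22 and 4.27, the constitutive ones between -0.37 and 0.41, and Psme3 is raised in the heart only among the 3 comparisons.

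Nlrc5, the transactivator, was the only gene of the 10 that was not called in the liver. It gave 4.41, 4.30 and 4.36 log2 units in the heart controls and 7.91, 7.26 and 8.0 in the heart allografts, a rise of 3.37 (10.3-fold, 95% confidence interval 2.71 to 4.03, adjusted P = 1.12e-05). These heart control signals were the lowest of the 10 genes. Over 32 alternatives Nlrc5 rose in the heart by 1.69 to 3.62. In the liver it gave 6.09, 5.49 and 6.30 in the controls, 6.28, 6.61 and 5.41 at POD5 and 6.64, 6.65 and 6.36 at POD8. The controls and the POD5 livers overlapped, and POD5 allograft 3 was the lowest liver array. The POD8 livers were all above the controls, by margins smaller than those of the other 9 genes. The log2 difference was 0.14 at POD5 (95% confidence interval -0.52 to 0.80, adjusted P = 0.813) and 0.59 at POD8 (-0.07 to 1.25, adjusted P = 0.236). When limma was given array weights, which lower the part of arrays that fit poorly, Nlrc5 was called at both times, with 0.76 at POD5 (adjusted P = 0.0247) and 0.98 at POD8 (adjusted P = 0.00425).

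Other regulators of class I transcription were read as a list of 10 genes, of which 2 rose in each of the 3 comparisons and none fell. Over all probes 13.3%, 8.12% and 7.05% rose. On a list of 10 the count is near that background and is not a result about the list. The 2 were Irf1, the interferon-responsive factor that binds the interferon-stimulated element, and Irf8, a factor of macrophages, dendritic cells and B cells. Irf1 rose by 4.21 log2 units in the heart, 1.72 in the POD5 livers and 2.12 at POD8. Irf8 rose by 3.83, 2.35 and 2.76. The 8 genes not called were Irf2, the RFX complex genes Rfx5, Rfxap and Rfxank, Creb1 and the CCAAT-binding factor genes Nfya, Nfyb and Nfyc, and the medians of the list were 0.22, 0.03 and 0.06.

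Between POD5 and POD8 in the liver, 0 of the 10 genes were called by limma, 0 by the study's standardized fold change and 0 by the methods' t-test, and 0 had an unadjusted P under 0.05. Over all probes 0.0293% were called. The log2 differences of POD8 from POD5 ran from -0.33 for Tapbp to 0.47 for Tap1, whose 95% confidence interval was -0.27 to 1.20. H2-K1 (-0.28, 95% confidence interval -0.72 to 0.15) and H2-D1 (-0.17, -0.72 to 0.38) were the 2 genes whose POD8 arrays were all below the POD5 arrays, as were 10.4% of all probes. The intervals of all 10 genes included 0, and they reached from 0.33 log2 units (Psmb10) to 0.74 (Tap1) to either side of the difference.

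The heart difference was larger than the liver difference at POD5 for each of the 10 genes, and the test of the difference between them was passed by 6. Over all probes, 8.53% were called in that direction. The median excess of the 10 genes was 1.32 log2 units, against 0.08 over all probes, and relative to all probes it was 1.24, or 0.81 with the percentile scaling. Nlrc5 had the largest excess in this fit, at 3.22 log2 units (95% confidence interval 2.29 to 4.16, adjusted P = 0.000786). The size and rank of its excess depended on the processing. Over 29 alternatives it ran from 1.44 to 3.49, while that of Tap1 ran from 2.22 to 2.84. Tap1 followed with 2.63 (1.59 to 3.67, adjusted P = 0.00397), then Tap2 with 1.55 (0.81 to 2.28, adjusted P = 0.0096). Psmb9 exceeded by 1.48 (0.90 to 2.05, adjusted P = 0.00383) and Psmb10 by 1.43 (0.95 to 1.90, adjusted P = 0.00166). The sixth was Tapbp with 1.22 (0.53 to 1.90, adjusted P = 0.0212). The transporter, 2 of the 3 inducible subunits, tapasin and the transactivator were thus the genes called. By their brightest probes H2-K1, H2-D1 and B2m were not. Whether these kinds of gene differ was not tested. Of 14 other class I and class I-like heavy chains with a probe, 6 were called in the same direction.

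The 4 genes not called were H2-K1 with an excess of 0.71 (95% confidence interval 0.10 to 1.32, adjusted P = 0.0973), H2-D1 with 0.70 (-0.07 to 1.48, adjusted P = 0.187), B2m with 0.13 (-0.44 to 0.71, adjusted P = 0.753) and Psmb8 with 0.84 (0.06 to 1.62, adjusted P = 0.125). Their intervals leave room for an excess of over 1 log2 unit for H2-K1, H2-D1 and Psmb8. The other H2-K1 probes gave 1.74 (adjusted P = 0.021) and -0.85 (adjusted P = 0.498), so that the direction for H2-K1 depended on the probe. Its brightest probe passed with the percentile scaling (1.12, adjusted P = 0.0267), with normexp background correction (0.88, adjusted P = 0.0429) and with array weights (1.04, adjusted P = 0.00598). With array weights H2-D1 (1.21, adjusted P = 0.00458) and Psmb8 (1.25, adjusted P = 0.00296) passed too. The percentile scaling and array weights also called more probes in that direction, 13651 and 9219 of 41003, against 3499 here. Normexp background correction called fewer, 3050. The 1.12 of H2-K1 with the percentile scaling stands beside a median of 0.64 over all probes, and the 0.71 beside 0.08. Tapbp lost its call when slides were modelled as a random block (1.02, adjusted P = 0.0794), without heart control 2 (1.09, adjusted P = 0.0507) and without liver allograft 1 at POD5 (1.09, adjusted P = 0.05). Its second probe gave an excess of 1.61 in the main fit (adjusted P = 0.0045). Without liver control 1, Psmb8 was called (1.11, adjusted P = 0.0264). The strains of donor and recipient differed between the organs, as did the surgery, so organ, strain pair and operation cannot be told apart. The slide cannot be told apart from the group in the heart either, since the 3 allografts were on 1 slide and the 3 controls on another. Liver allograft 3 at POD5 shared the slide of the heart allografts, and it was the lowest of its group for B2m, Tap1 and Nlrc5 and the highest for H2-K1, H2-D1, Tapbp, Psmb8, Psmb9 and Psmb10.

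**Figure D4:**
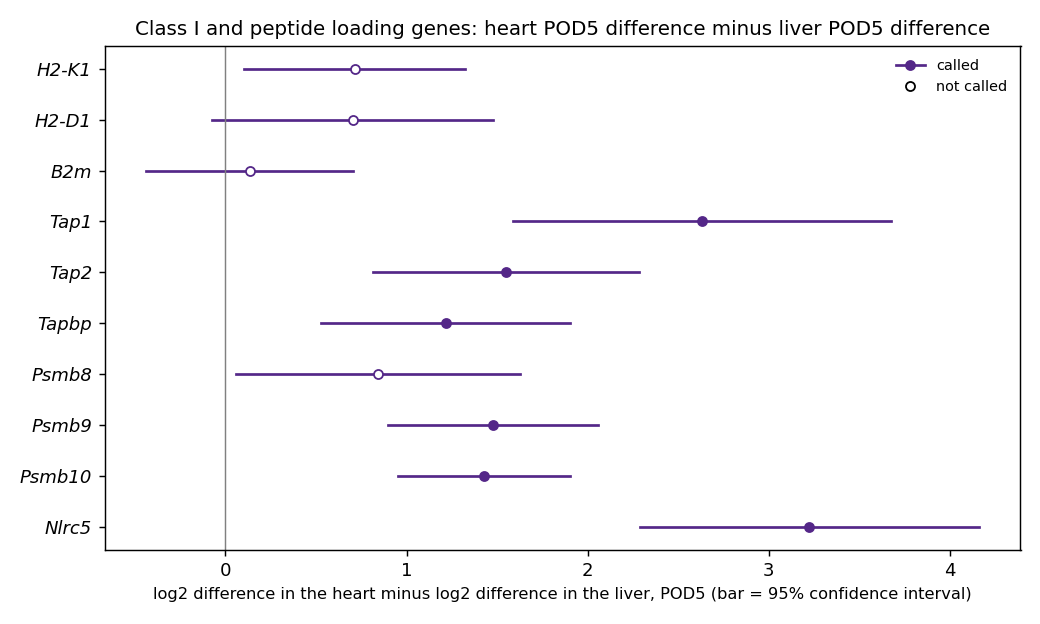
Log2 difference between allografts and controls in the heart minus that in the liver, both at POD5 (x axis), for the 10 genes (y axis), with 95% confidence intervals as bars and open points where the test was not passed. All 10 points lie above 0, from 0.13 for B2m to 3.22 for Nlrc5, and 4 of them are open.

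In the liver at POD8, 2 allografts and 2 controls shared a slide. On that slide alone both allografts exceeded both controls for 10 of 10 genes, as they did for 22.8% of all probes, with log2 differences of 1.07 for H2-K1, 1.30 for H2-D1, 1.11 for B2m, 3.11 for Tap1, 2.15 for Tap2, 1.04 for Tapbp, 2.36 for Psmb8, 2.88 for Psmb9, 1.31 for Psmb10 and 0.85 for Nlrc5. These stand beside 1.21, 1.38, 0.95, 2.59, 2.27, 1.07, 2.23, 2.78, 1.22 and 0.59 over all slides, in the same order of genes.

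In the controls, 5 of the 10 genes were lower in the heart than in the liver on the common scale, and none was higher. Over all probes 26.4% were called lower in the heart on that scale. Quantile normalization within each organ does not put the 2 organs on 1 scale. Under it 5 of the 10 genes were called higher in the heart and none lower, beside 23769 of 41003 probes called higher. On the common scale Nlrc5 differed most (-1.60, adjusted P = 0.0007), with H2-D1 at -1.02, Tapbp at -0.88, H2-K1 at -0.79 and Psmb9 at -0.68. All heart controls lay below all liver controls for 6 genes, those 5 and Tap1, as they did for 35.7% of all probes. The normalization within organs moved the median difference of all probes from -0.07 to 0.96. Relative to all probes, the median of the 10 genes was -0.67 on the common scale, -0.37 with normalization within organs and -0.15 with the percentile scaling, so it lay below that of all probes under these 3 scalings while the sign of the difference itself turned.

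Of the remaining class I and class I-like heavy chains 18 were listed and 14 had a probe. Of the 14, 10 rose in the heart, 7 in the POD5 livers and 8 at POD8, against 13.3%, 8.12% and 7.05% of all probes. The medians of the 14 were 2.20, 1.18 and 0.92 log2 units. H2-T23, which encodes the Qa-1 antigen, rose by 3.18 in the heart, 1.31 in the POD5 livers and 1.01 at POD8. H2-Q10, known as a class I molecule that the liver secretes, rose by 2.76, 1.16 and 1.1. Only Hfe, which regulates iron uptake, fell in the heart (-1.27, adjusted P = 0.00046), and it was singled out after its values were seen. H2-L, H2-Q6, H2-T10 and H2-M2 had no probe matched here.

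H2-Q8 differed between the organs more than any other gene of the list. Its log2 signals were 4.89, 5.10 and 4.87 in the heart controls and 11.30, 11.94 and 11.65 in the heart allografts. In the liver they were 10.97, 9.60 and 10.58 in the controls, 10.20, 10.08 and 10.59 at POD5 and 10.41, 10.41 and 10.33 at POD8. The heart controls stood more than 4 log2 units below every other array, and the 3 liver groups overlapped. The rise in the heart was 6.68 log2 units (103-fold, 95% confidence interval 6.04 to 7.32, adjusted P = 5.42e-08). The liver differences were -0.09 at POD5 and 0.00 at POD8, and the excess of the heart over the liver at POD5 was 6.78 (adjusted P = 5.84e-06). The heart donors were H-2b and their recipients H-2k, the liver donors were H-2k and their recipients H-2d, and the strain of the controls is not given. Whether the H2-Q8 probe reads the alleles of these haplotypes alike was not tested.

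**Figure D5:**
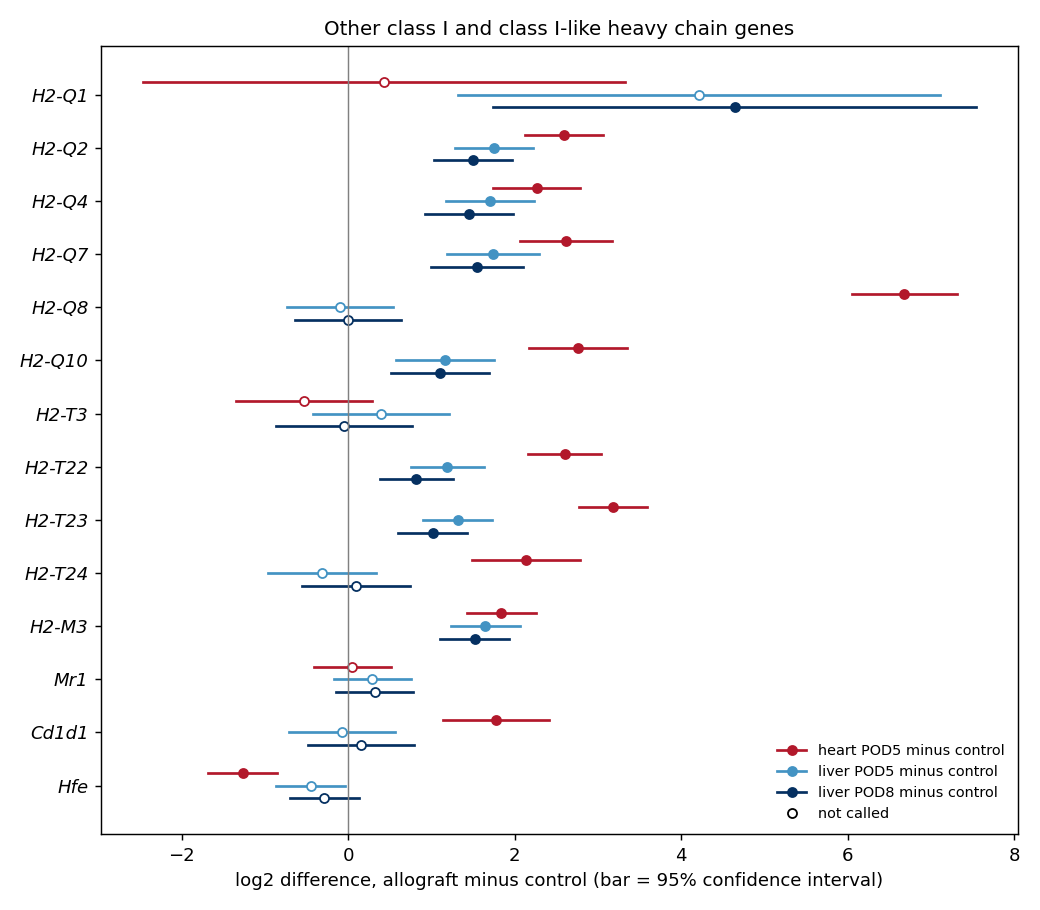
Log2 difference between allografts and controls (x axis, bars for 95% confidence intervals, open points not called) for the 14 other class I and class I-like heavy chain genes with a probe (y axis), in the heart and in the liver at both times. H2-Q8 lies at 6.68 in the heart and near 0 in the liver, Hfe lies below 0 in the heart, and the wide bars of H2-Q1 belong to a probe that was not well above background on any heart array.

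Some markers of leukocytes rose in the same comparisons as the class I genes. Of 10 listed markers 9 had a probe. Of these, 6 rose in the heart, 4 in the POD5 livers and 5 at POD8, against 13.3%, 8.12% and 7.05% of all probes. None of the 9 markers fell. Their median differences were 1.34, 1.31 and 1.68 log2 units. Unlike the class I genes, their median for the heart difference minus the liver difference at POD5 was negative, at -1.53. Of the 9 markers 2 were called higher and 1 (Cd8a, -1.96) lower, beside 3499 and 3886 of 41003 probes. On the liver controls 2 of the 9, Cd8a among them, were not well above background on any array. The sizes of their organ differences are therefore uncertain, and so is the median. The mean log2 signal of the 9 was 7.28 to 7.77 in the heart controls and 9.24 to 9.56 in the heart allografts. It was 5.53 to 6.58 in the liver controls, 8.35 to 8.85 at POD5 and 8.52 to 8.62 at POD8. Cd8a, the co-receptor of the T cells that read class I, rose by 6.02 log2 units in the heart and was at least 104-fold higher in the liver at both times, since it was not well above background on any liver control. Cd3d, a chain of the T cell receptor complex, rose by 4.68, 5.20 and 4.51. Ptprc, the common leukocyte antigen, rose by 1.34, 2.99 and 2.70. The macrophage and myeloid markers Adgre1 (-0.33) and Itgam (-0.06) and the B cell marker Ms4a1 (-0.95) were the 3 not called in the heart, and Cd4, Cd3e and Ms4a1 were called at neither time in the liver. Endothelial markers fell in the heart, with 4 of 5 called lower against 15.3% of all probes. Their mean was 10.7 to 11 in the heart controls and 8.85 to 9.30 in the heart allografts. In the liver it was 7.86 to 8.72 in the controls, 8.61 to 8.85 at POD5 and 8.82 to 9.04 at POD8. There 1 of the 5 was called lower at POD5 and 1 higher at POD8, beside 2874 and 2889 of 41003 probes. Leukocytes express all class I pathway genes, and the part of entering cells in the rises above was not tested. In whole grafts, a change in the number of cells of a type and a change in RNA per cell cannot be told apart.

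Over the 15 arrays, each of the 10 genes was correlated with the mean of the other 9, each gene scaled to its own mean and SD. Pearson's r ran from 0.825 for Nlrc5 to 0.988 for Psmb9, as a description, since the arrays of a group share their condition. Of 18159 other genes, the 5 whose pattern was most like the mean of the 10 were Calhm6 (r = 0.987), Fut7 (0.985), Irgm1 (0.983), Nmi (0.982) and Hk3 (0.981). Calhm6 belongs to a family of channel proteins, Irgm1 is an interferon-inducible GTPase, Nmi is an interferon-induced protein, Fut7 makes selectin ligands of leukocytes, and Hk3 is the hexokinase of myeloid cells. Their rises were 6.0, 2.98, 4.51, 1.65 and 5.07 log2 units in the heart, 3.08, 1.79, 2.28, 1.02 and 2.60 in the POD5 livers and 3.18, 1.78, 2.55, 0.98 and 3.05 at POD8, in the order of these names Calhm6, Fut7, Irgm1, Nmi and Hk3. That they were called in the 3 comparisons was fixed by this choice. They differed among themselves in size by more than 4 log2 units in the heart, since the measure of likeness reads the shape over arrays and not the size.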

How the data were processed

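Total RNA of 15 grafts and control tissues was labelled with Cy3 and hybridized to 1 Agilent array each. The authors deposited scanner output, in which the processed intensity of a spot (Feature Extraction 10.5.1.1) is linear, background-subtracted and not normalized between arrays. The header build is mm9, which was not used for names. Spots marked as outliers (47 to 113 per array) were dropped, log2 was taken, repeated spots were averaged to 1 value per probe and quantile normalization was run over the 15 arrays. Probe accessions were matched to RefSeq names of GRCm38.p6 (26690 of 41174 matched). Files were read with data.table, version 1.17.8. In R 4.3.3, limma 3.58.1 was fitted once to 5 groups (10 residual degrees of freedom) for 6 comparisons, with Benjamini-Hochberg adjustment over 41003 probes at 0.05. Groups and quantile normalization follow the study, which compared 3 phases with Bonferroni correction. Log2 in place of the natural log, 1 fit for all groups, Benjamini-Hochberg adjustment and the dropping of outlier spots do not. A gene was read from its brightest probe over the 15 arrays. A lower bound set the bright group's mean against the lowest signals well above background.

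Named genes were the 10 members, the 3 of each list with the largest called difference in the heart, and the 5 most like the members' mean by Pearson's r. The members, lists and rules were chosen with earlier results of these data known, and 1 further gene each of the lists of regulators and of leukocyte markers is not reported here, so these lists are counted without it. On data simulated for the heart comparison (41003 probes), the fit called 76 of 100 probes changed by 3 log2 units, 17 of 100 changed by 1 and 8 unchanged probes. No other probes were changed, while 11718 were called in the real heart comparison. Since the adjustment depends on how many probes change, these counts do not give the share of changes found in the real data. Alternatives were other normalizations (organ-wise quantile, 75th percentile, normexp with an offset of 50 on median signals), other probe sets, other tests (standardized fold change with a bin of 1000 and the methods' t-test), slide and replicate blocks, array weights and leaving out each array. The dimmest probe and the shorter motif were added after the data were seen. Figures were drawn with matplotlib 3.10.9.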

Additional observations from a re-analysis of the deposited data

Results flagged for a closer look

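The rise from controls to allografts at POD5 differed between heart and liver by the test of that difference for 6 of the 10 genes. The log2 difference in the heart exceeded that in the liver by 2.63 for Tap1 (4.76 against 2.13), 1.55 for Tap2 (4.03 against 2.48) and 1.22 for Tapbp (2.62 against 1.40). Psmb9 exceeded by 1.48 (4.27 against 2.79), Psmb10 by 1.43 (2.85 against 1.42) and Nlrc5 by 3.22 (3.37 against 0.14). Adjusted P ran from 0.000786 for Nlrc5 to 0.0212 for Tapbp.

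Of the 19 other named genes 12 passed the same test, and Erap1, Canx, Psme1, Psma5, Psma4, Fut7 and Nmi did not. These genes had been named for a large difference in the heart or for likeness to the members, which favours an excess in the heart, so their values are a description. Among heavy chains and loading genes the excess in the heart was 6.78 for H2-Q8, 1.87 for H2-T23, 1.60 for H2-Q10 and 3.03 for Tapbpl. Among proteasome genes it was 0.58 for Psme2, 1.62 for Psme3 and 0.85 for Pomp. Among regulators it was 2.49 for Irf1 and 1.48 for Irf8, and among the genes of like pattern 2.93 for Calhm6, 2.23 for Irgm1 and 2.47 for Hk3. In the heart, group and slide cannot be told apart, and the organs also differ in strain pair and operation.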

How the results depend on the processing

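With Benjamini-Hochberg adjustment under limma, 10 of 10 members were called in the heart under each of 28 alternatives, and 9 in the liver at each time except where named here. With 75th percentile scaling 8 were called at POD5, where B2m was lost, and 5 at POD8, where H2-K1 (0.66), H2-D1 (0.82), B2m (0.50) and Tapbp (0.74) were lost. With only the arrays compared in the fit, and so fewer degrees of freedom, 5 were called at POD5 and 7 at POD8. The methods' t-test with Benjamini-Hochberg adjustment called 1 at POD5, 4 at POD8 and 2 between the controls. With Bonferroni adjustment limma called 4 at POD5, 2 at POD8, 0 for the excess of the heart over the liver and 0 between the controls. The standardized fold change with Bonferroni adjustment called 3 in the heart, 3 at POD5, 4 at POD8 and 0 between the controls, and the methods' t-test with Bonferroni adjustment called 0 in each of these 4 comparisons. Leaving out 1 array at a time gave 10 to 10 in the heart, 9 to 9 at each liver time, 0 to 0 between POD8 and POD5, 5 (without heart control 2) to 7 (without liver control 1) for the excess, and 5 to 7 (without liver control 1) between the controls. With array weights 10 members were called at POD5, 10 at POD8 and 9 for the excess. Over all probes array weights raised the calls from 6205 to 11102 at POD5, from 4791 to 10813 at POD8 and from 7385 to 16610 for the excess. Where no cause is named, the cause was not tested.

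Between the organs' controls, quantile normalization within each organ raised the median difference of all probes from -0.07 to 0.96. It called 5 members, all higher in the heart, which were B2m (1.08), Tap2 (0.92), Psmb8 (1.11), Psmb9 (0.56) and Psmb10 (1.15), and turned H2-K1 (0.17) and Tapbp (0.27) without calling them. Over all probes it called 23769 of 41003 higher in the heart, since it does not put the organs on 1 scale. The members' median stayed below that of all probes (-0.67 before, -0.37 after). It also gave 1.04 for Erap1, 1.01 for Psme2, 0.72 for Psme1, 0.60 for Pomp, 0.63 for Irf1, 0.16 for Calhm6, 0.88 for Fut7, 0.69 for Irgm1 and 0.80 for Nmi. With 75th percentile scaling B2m was at -0.73 and Psma5 at -0.19. By the dimmest probe Canx was at -0.71. In the heart comparison, Canx turned to 0.30 by its dimmest probe. A further 26 member values and 62 of other named genes changed sign without being called under either setting, and are not counted as turned. Over all probes, 75th percentile scaling moved the share of higher calls from 46.6% to 73.8% in the heart, 53.7% to 31.2% at POD5 and 60.3% to 20.6% at POD8.

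Same-numbered arrays did not deviate together (1 of 30 pairs with r over 0.1, range -0.12 to 0.16). A replicate block called 10 in the heart, 9 at POD5, 9 at POD8, 0 between POD8 and POD5, 6 for the excess and 5 between the controls. Scans coincided with slides, so a scan block was not run separately.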
